A study of Mus musculus with 12 samples.

Results

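The genes described here are 8 markers of the fetal contractile program and of cardiac hypertrophy: the myosin heavy chains *Myh6*, *Myh7* and *Myh7b*, the actins *Acta1* and *Acta2*, the stretch-responsive gene *Ankrd1*, the intercalated disc gene *Xirp2* and the calcineurin regulator *Rcan1*. They were taken by gene symbol from a table of 19308 genes, and each symbol matched 1 gene. RNA was sequenced from 12 hearts of C57BL/6 mice, males by the methods of the study, with 3 hearts in each of 4 groups. WT hearts and hearts of global *Fabp3* knockout mice made with CRISPR-Cas9 (F3-KO) came from mice that had a sham operation or transverse aortic constriction (TAC) at 8 weeks of age, and hearts were frozen 1 week later. TAC narrows the aortic arch and so loads the left ventricle with pressure, and sham-operated mice had the same surgery without the constriction. The knockout is global, so every cell type of the F3-KO hearts carried it, and the WT sham group was the only group with neither the knockout nor the constriction.

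The adult mouse ventricle makes its thick filaments mainly from α-myosin heavy chain, the product of *Myh6*, whereas the fetal ventricle uses the slower β-myosin heavy chain, the product of *Myh7*. Under pressure overload, cardiomyocytes return in part to the fetal pattern, with more *Myh7*, more skeletal α-actin (*Acta1*) and more natriuretic peptide, and *Myh6* tends to go down. Genes of the stretched sarcomere and of the junctions between cells also respond, among them *Ankrd1*, a titin-binding ankyrin repeat protein, and *Xirp2*, an actin-binding protein of the intercalated disc, while *Rcan1* is both an inhibitor and a transcriptional target of the calcineurin and NFAT pathway.

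Levels are given as CPM, the estimated count of a gene per 1000000 counts of its library after TMM scaling. Library totals ran from 10424334 to 14372011 counts. Before TMM scaling 3 counts were worth 0.209 to 0.288 CPM, far below the lowest value of the 8 genes (38.6 CPM), all of which passed the filter on low counts. *Fabp3*, the targeted gene, stood at 2117 to 3064 CPM in the 6 WT hearts and at 1002 to 1143 CPM in the 6 F3-KO hearts, and it was lower in F3-KO hearts after sham (log2 fold change -1.21, adjusted p = 0.00784, edgeR) and after TAC (-1.49, adjusted p = 0.00146, edgeR). By western blot the paper reports a complete loss of the protein from the heart, which RNA counts do not measure. All 8 cardiomyocyte markers were counted in every group, with a summed level of 44849 to 79467 CPM per heart, whereas 10 skeletal muscle markers together reached 2.66 to 6.43 CPM. In bulk tissue, fewer cells of a type and less RNA per cell cannot be told apart, which applies to every level below. The labels number the replicates without naming the animals, and the study calls them biological replicates. The p-values set group differences against the spread between these hearts.

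Pressure overload was the first question. In both genotypes *Acta1* stood at a higher level in every TAC heart than in any sham heart, and in F3-KO hearts the same held for *Ankrd1*, *Xirp2* and *Rcan1*, with *Myh6* below the sham level in every TAC heart. *Myh7* varied widely between hearts of 1 group, and its groups overlapped in each comparison. Within WT hearts, edgeR called 0 of the 8 genes at an adjusted p under 0.05 (0.0% of all 14094 genes tested), 2 of 8 had an unadjusted p under 0.05 (6.28% of all genes), DESeq2 called 1 (0.192%), limma-trend called 0 (0.0071%), and 1 of 8 had groups that did not overlap (9.1%). Within F3-KO hearts, edgeR called 0 (0.0%), 6 had an unadjusted p under 0.05 (17.1%), DESeq2 called 5 (3.15%), limma-trend called 0 (0.0568%), and 5 did not overlap (22.9%). Over both genotypes, edgeR called 1 gene, *Acta1* (0.078%), 6 had an unadjusted p under 0.05 (17.8%), DESeq2 called 4 (4.66%), limma-trend called 1 (0.0851%), and 1 did not overlap (0.837%). Without F3-KO TAC replicate 3, edgeR called 4 of the 8 genes within F3-KO (5.43% of all 14340 genes tested) and 4 over both genotypes (5.92%), *Acta1*, *Ankrd1*, *Xirp2* and *Rcan1* each time, so leaving out that heart raised the number of calls over all genes too. The median log2 fold change of the 8 genes was 0.47 in WT, 1.35 in F3-KO and 1.00 over both, beside medians of 0.00, 0.02 and 0.00 over all genes tested.

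**Figure D1:**
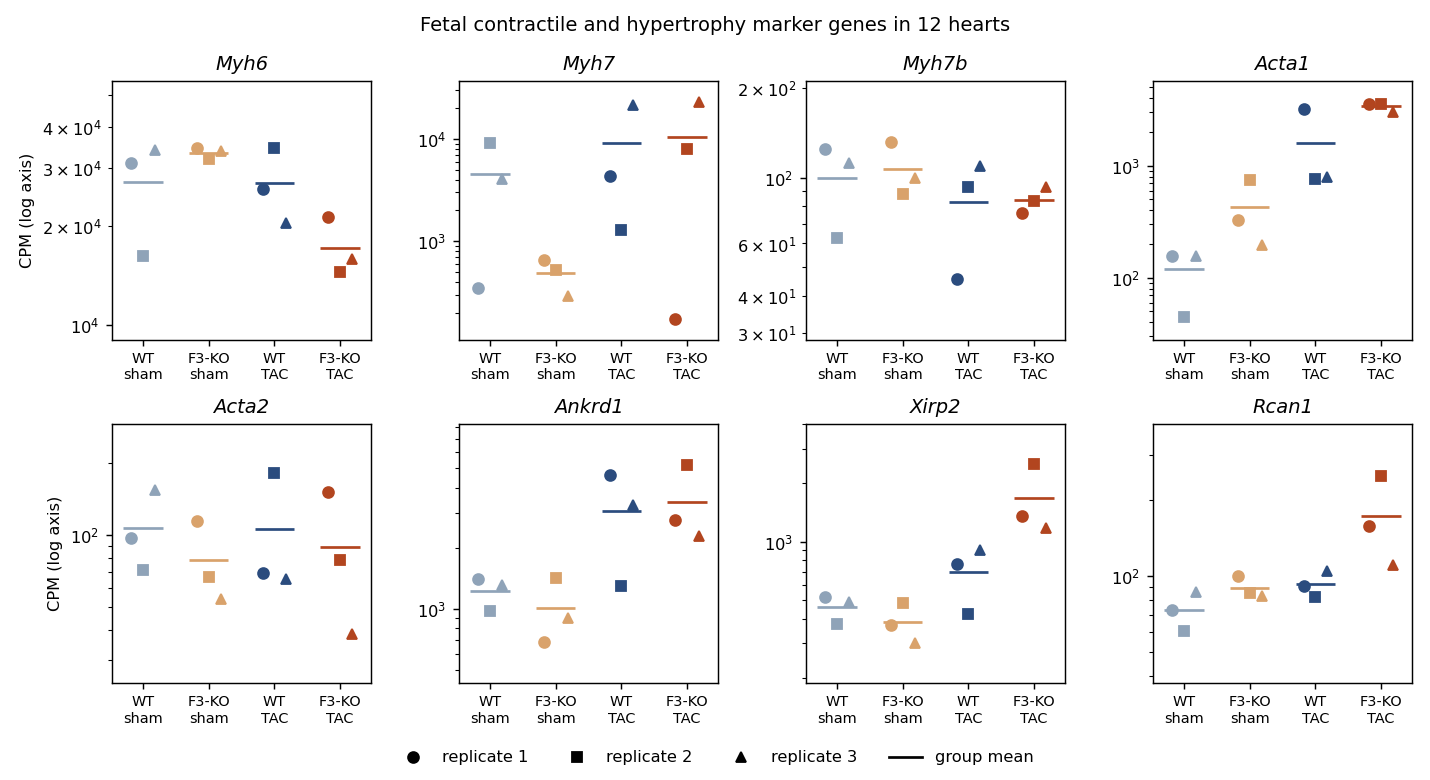
CPM of the 8 genes in each of the 12 hearts, on log axes with a range of their own in each panel. Points are single hearts with the replicate number shown by the marker, and horizontal lines are group means; the 6 TAC hearts lie above the 6 sham hearts for Acta1, while Myh7 spans 174 to 23126 CPM within the F3-KO TAC group.

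*Myh6*, which encodes the fast adult myosin motor, had the highest mean level per transcript length of the 8 genes in each group. In WT sham hearts it stood at 31157, 16252 and 34081 CPM, in F3-KO sham hearts at 34460, 31855 and 33849, in WT TAC hearts at 25916, 34421 and 20411, and in F3-KO TAC hearts at 21214, 14448 and 15893. The F3-KO sham hearts were close to each other and all F3-KO TAC hearts lay below them, whereas the WT groups overlapped, with WT sham replicate 2 inside the F3-KO TAC range. The log2 fold change with TAC was -0.96 ± 0.29 (SE) in F3-KO hearts (adjusted p = 0.182, edgeR) and -0.01 ± 0.29 in WT hearts (adjusted p = 0.996, edgeR), and the WT value turned positive in 8 of the other settings tried. The difference between these effects was -0.95 ± 0.41 (unadjusted p = 0.0402, adjusted p = 0.954, edgeR). Under limma-trend, *Myh6* had an unadjusted p under 0.05 in no comparison. DESeq2 called *Myh6* lower with TAC in F3-KO hearts (log2 fold change -0.97, adjusted p = 0.0226).

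The sum of the 8 cardiomyocyte markers also stood lower after TAC in F3-KO hearts. It was 65337 to 72577 CPM after sham and 44849 to 56504 CPM after TAC. The single markers were less uniform, with log2 fold changes from -0.85 (*Tnni3*) to -0.2 (*Actc1*) and -0.05 (*Ryr2*). For *Ryr2*, F3-KO TAC replicate 3 (1577 CPM) exceeded every F3-KO sham heart. Of the 8 markers, 2 (*Atp2a2* and *Tnni3*) were lower at an unadjusted p under 0.05 (17.1% of all genes, higher or lower) and 0 were called by edgeR. In the same comparison the sum of 8 fibroblast markers was 1091 to 1426 CPM after sham and 1596 to 7157 CPM after TAC. Per 1000 CPM of cardiomyocyte markers, *Myh6* stood at 466 to 488 CPM in F3-KO sham and 281 to 399 CPM in F3-KO TAC hearts, so the groups did not overlap on that scale either. Over both genotypes, 3 of the 8 markers (*Atp2a2*, *Pln* and *Tnni3*) were themselves lower with TAC at an unadjusted p under 0.05 (edgeR). That stands beside 17.8% of all genes, higher or lower. The scale therefore cannot separate cardiomyocyte content from a TAC response of its own markers.

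*Myh7*, the fetal and slow-muscle myosin, was the most variable member. Its level was 347, 9179 and 4020 CPM in WT sham hearts, 648, 520 and 290 CPM in F3-KO sham hearts, 4383, 1285 and 21580 CPM in WT TAC hearts and 174, 8073 and 23126 CPM in F3-KO TAC hearts. The highest levels were in replicate 3 of both TAC groups, yet the lowest of all 12 was F3-KO TAC replicate 1, and WT sham replicate 2 exceeded 4 of the 6 TAC hearts. The highest heart stood 133-fold over the lowest within F3-KO TAC, 26.5-fold within WT sham, 16.8-fold within WT TAC and 2.24-fold within F3-KO sham. With that spread, the log2 fold change with TAC was 4.43 ± 1.53 in F3-KO hearts (adjusted p = 0.199, edgeR) and 1.01 ± 1.34 in WT hearts (adjusted p = 0.921, edgeR). Without WT TAC replicate 3 the WT value was -0.67.

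The *Myh7* to *Myh6* ratio, taken from the counts within each library, is the usual index of the switch to the fetal myosin. It was 0.0111, 0.565 and 0.118 in WT sham hearts, 0.0188, 0.0163 and 0.00856 in F3-KO sham hearts, 0.169, 0.0373 and 1.06 in WT TAC hearts and 0.00821, 0.559 and 1.46 in F3-KO TAC hearts. As a share of both transcripts, *Myh7* made up 15.9% ± 18.1 (SD, n = 3) in WT sham and 23.2% ± 25.1 in WT TAC hearts, and 1.43% ± 0.521 in F3-KO sham and 32.0% ± 29.4 in F3-KO TAC hearts. Only the F3-KO sham group was tight, with its 3 hearts at or under 1.85%, a level that WT sham replicate 1 (1.1%) and F3-KO TAC replicate 1 (0.815%) also had.

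Mean log2 ratios were -3.47 ± 2.85 (SD, n = 3) in WT sham and -2.41 ± 2.42 in WT TAC hearts, and -6.18 ± 0.61 in F3-KO sham and -2.41 ± 3.97 in F3-KO TAC hearts. The ratio was higher after TAC by 1.06 on the log2 scale in WT (p = 0.6, exact two-sided permutation test) and by 3.77 in F3-KO hearts (p = 0.4, exact permutation test), where 3 hearts against 3 cannot give a p under 0.1. Over both genotypes the difference was 2.41 with labels exchanged within genotype (p = 0.16, exact permutation test over 400 arrangements). F3-KO hearts differed from WT by -2.71 after sham (p = 0.3, exact permutation test) and by 0.00 after TAC (p = 1.0, exact permutation test), and the difference between the TAC effects was 2.71 (p = 0.445, exact permutation test). Adjusted over these 6 comparisons, every p was 0.6675 or more. The WT value was -0.46 without WT sham replicate 1 and -0.19 without WT TAC replicate 3, and the F3-KO value was 6.03 without F3-KO TAC replicate 1 and 2.3 without F3-KO TAC replicate 3. After sham the genotype difference was -4.23 without WT sham replicate 1 and -1.39 without WT sham replicate 2, and the difference between the TAC effects ran from 1.24 without F3-KO TAC replicate 3 to 4.97 without F3-KO TAC replicate 1.

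**Figure D2:**
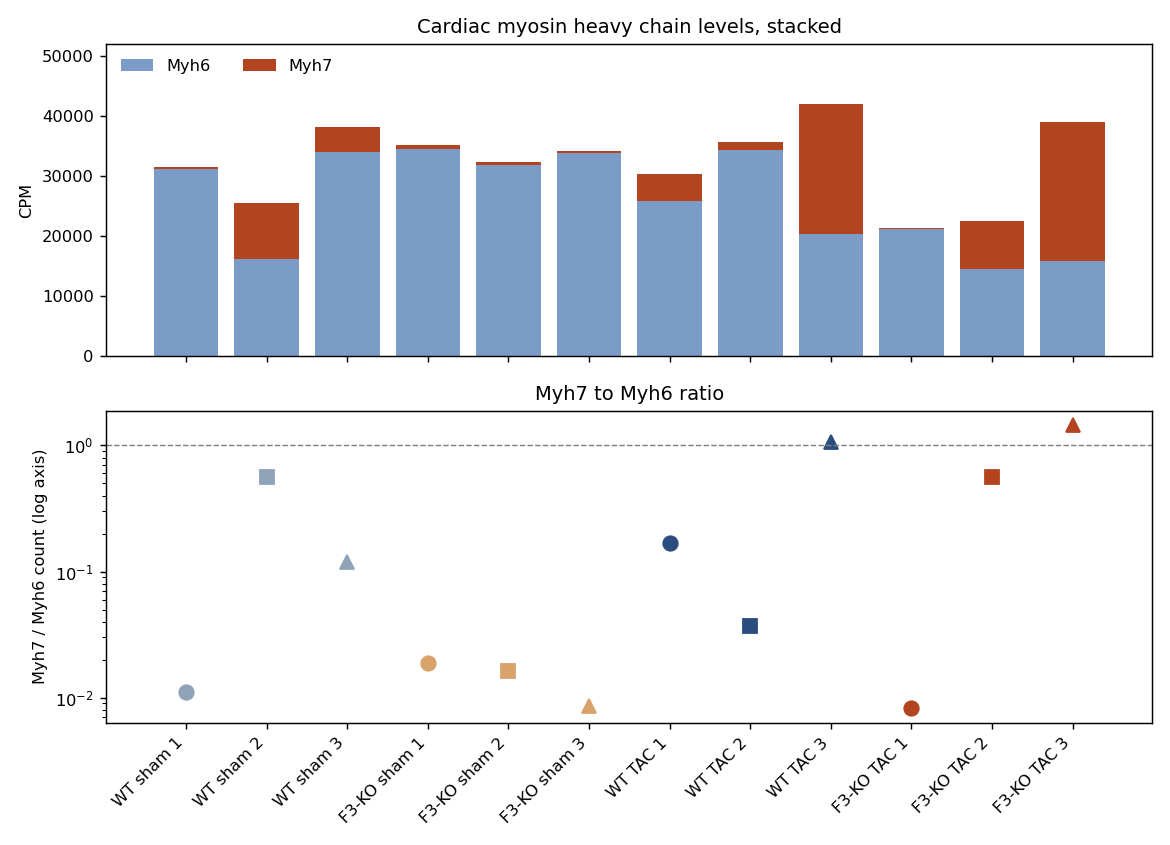
Upper panel, CPM of Myh6 and Myh7 stacked for each heart; lower panel, the Myh7 to Myh6 count ratio of the same hearts on a log axis, with a dashed line at equal counts and marker shapes for replicates 1, 2 and 3. Replicate 3 of each TAC group lies above the line, and F3-KO TAC replicate 1 lies with the F3-KO sham hearts.

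Summed, these myosins ranged from 21387 to 41991 CPM over the 12 hearts. The sum was 31677 ± 6336 CPM (SD, n = 3) in WT sham and 36001 ± 5849 in WT TAC hearts, and 33873 ± 1385 in F3-KO sham and 27642 ± 9867 in F3-KO TAC hearts. The fitted log2 fold change of the sum, a fit added after the values were seen, was 0.18 ± 0.25 with TAC in WT (adjusted p = 0.925, edgeR) and -0.29 ± 0.25 in F3-KO hearts (adjusted p = 0.591, edgeR).

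These transcripts are alike in sequence, which bears on how reads can be assigned to them. Of the 6181 windows of 50 bases in the longest annotated *Myh7* coding transcript, 1373 (22.2%) occurred unchanged in *Myh6*, and of the 100-base windows 11.2% did. The longest stretch that both transcripts share (GENCODE M21) was 245 bases of the coding region, at positions 4636 to 4880 of *Myh7* and 4482 to 4726 of *Myh6*, and is shown because a read from it fits either gene.
Myh6 and Myh7 identical stretch: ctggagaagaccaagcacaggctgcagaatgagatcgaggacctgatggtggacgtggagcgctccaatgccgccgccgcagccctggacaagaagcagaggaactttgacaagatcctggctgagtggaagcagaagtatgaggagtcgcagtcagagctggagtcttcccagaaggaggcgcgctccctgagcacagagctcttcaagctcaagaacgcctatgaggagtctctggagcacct
The estimated counts of *Myh6* and *Myh7* were not whole numbers in any of the 12 hearts, whereas those of *Ankrd1* and *Rcan1* were whole, within 0.005, in all 12 and neither had a 50-base window in another gene. Whole counts did not follow shared windows throughout. Those of *Myh7b*, with 0 such windows, were whole in 4 of the 12 hearts, and those of *Acta2*, with 0.352% of its windows, in 0. How reads of the shared windows were divided is not given in the sources used here, and its part in the *Myh7* spread was not tested. The markers of other cells that vary most between hearts, the erythroid ones, summed to 321 and 380 CPM in the hearts with the highest ratio (WT TAC and F3-KO TAC replicate 3), to 630 CPM in WT sham replicate 2 and to 902 CPM in F3-KO TAC replicate 1, within a range of 321 to 4718 CPM over all hearts, and their part in the result was not tested.

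*Myh7b*, an ancient relative of *Myh7* whose heart transcript is better known as the host of a microRNA than for its protein, was the least abundant member per length. It stood at 125, 62.4 and 112 CPM in WT sham, 132, 88.1 and 100 CPM in F3-KO sham, 45.6, 92.7 and 109 CPM in WT TAC and 75.8, 83.3 and 92.8 CPM in F3-KO TAC hearts. All groups overlapped, and the log2 fold change with TAC was -0.27 ± 0.31 in WT (adjusted p = 0.898, edgeR) and -0.35 ± 0.31 in F3-KO hearts (adjusted p = 0.595, edgeR). No 50-base window of *Myh7b* occurred in another gene, and its estimates were whole, within 0.005, in 4 of the 12 hearts.

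*Acta1*, the skeletal α-actin that the fetal heart uses beside cardiac α-actin, was the member that rose with TAC in the edgeR test. It was 156, 44.9 and 156 CPM in WT sham, 328, 753 and 197 CPM in F3-KO sham, 3202, 762 and 800 CPM in WT TAC and 3564, 3566 and 3044 CPM in F3-KO TAC hearts. All 6 TAC hearts exceeded all 6 sham hearts, although WT TAC replicate 2 (762 CPM) and F3-KO sham replicate 2 (753 CPM) were nearly level, and the F3-KO TAC hearts lay close together. The log2 fold change over both genotypes was 3.36 ± 0.48, or 10.3-fold (adjusted p = 0.0248, edgeR). Within WT it was 3.74 ± 0.70 (adjusted p = 0.284, edgeR; 0.000551, DESeq2) and within F3-KO 2.99 ± 0.67 (adjusted p = 0.172, edgeR; 0.00954, DESeq2). The call over both genotypes was lost without WT sham replicate 1 (adjusted p = 0.107), WT sham replicate 3 (0.0858), F3-KO sham replicate 1 (0.129) or F3-KO sham replicate 3 (0.115), with log2 fold changes of 3.19 to 3.49, and the call within F3-KO was gained without F3-KO TAC replicate 3 (0.0395).

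Between genotypes, *Acta1* was higher in every F3-KO sham heart than in any WT sham heart, with a log2 fold change of 1.84 ± 0.64 (unadjusted p = 0.0145, adjusted p = 0.614, edgeR). After TAC the difference was 1.09 ± 0.63 (adjusted p = 0.562, edgeR) and WT TAC replicate 1 (3202 CPM) lay within the F3-KO range. Per 1000 CPM of cardiomyocyte markers, *Acta1* stood at 0.796 to 2.27 CPM in WT sham and 9.59 to 67.3 in WT TAC hearts, and at 2.72 to 11.5 in F3-KO sham and 53.9 to 79.5 in F3-KO TAC hearts, so on that scale F3-KO sham and WT TAC hearts overlapped. The limit given for this scale with *Myh6* applies here too.

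Cardiac α-actin (*Actc1*), the main adult isoform, had a mean of 12733 CPM over all hearts and a log2 fold change of 0.17 with TAC over both genotypes. The counts of *Actc1*, *Acta1* and *Acta2* together gave 0.39 ± 0.21 (adjusted p = 0.359, edgeR), a fit added after the values were seen. *Acta1* estimates were not whole in any heart. Of its 50-base windows 2.22% occurred in another gene, none of them in *Actc1*, with which its longest identical stretch was 29 bases.

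*Acta2*, the α-actin of smooth muscle that is also part of the fetal cardiac program and of myofibroblasts, did not follow *Acta1*. It was 97.0, 71.7 and 154 CPM in WT sham, 115, 66.9 and 54.2 CPM in F3-KO sham, 69.3, 182 and 65.6 CPM in WT TAC and 151, 78.8 and 38.6 CPM in F3-KO TAC hearts. The groups overlapped in every comparison, and the log2 fold change over both genotypes was 0.08 ± 0.36 (adjusted p = 0.934, edgeR), with a sign that changed between settings. The sums of 9 other smooth muscle markers overlapped too, with values that ran from 419 to 592 CPM in WT sham, 438 to 610 in F3-KO sham, 417 to 507 in WT TAC and 390 to 539 in F3-KO TAC hearts. *Smtn* and *Synpo2* were the most abundant of them (means 235 and 112 CPM). At an unadjusted p under 0.05, 1 of the 9 (*Cnn1*) was higher with TAC in F3-KO hearts (17.1% of all genes), and 0 were called. It stood at 0.998, 1.56 and 0.55 CPM after sham and 6.83, 15.2 and 1.4 CPM after TAC (log2 fold change 2.9, adjusted p = 0.175, edgeR). *Cnn1* had such a p over both genotypes, between genotypes after TAC and for the interaction too.

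The promoters of the 2 actins are shown because these genes encode nearly the same protein and their values with TAC differed. Each window runs from 250 bases before to 50 bases after the transcript start (RefSeq, GRCm38.p6). Capitals mark, on either strand, the MCAT core CATTCC bound by TEAD factors, the CArG box bound by SRF, the MEF2 box and the TATAAA box. Only exact matches to each consensus were searched, so a CArG or MEF2 box that departs from it by even 1 letter is not marked, and no matches overlap in the windows shown.
Acta1 promoter, chr8:123894726-123895025, minus strand: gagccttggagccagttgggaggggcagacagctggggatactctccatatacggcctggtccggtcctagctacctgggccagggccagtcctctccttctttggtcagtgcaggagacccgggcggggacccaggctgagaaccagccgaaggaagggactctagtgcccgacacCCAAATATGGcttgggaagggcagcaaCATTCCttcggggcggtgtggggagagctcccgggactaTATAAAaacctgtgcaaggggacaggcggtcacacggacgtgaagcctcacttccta
Acta2 promoter, chr19:34255324-34255623, minus strand: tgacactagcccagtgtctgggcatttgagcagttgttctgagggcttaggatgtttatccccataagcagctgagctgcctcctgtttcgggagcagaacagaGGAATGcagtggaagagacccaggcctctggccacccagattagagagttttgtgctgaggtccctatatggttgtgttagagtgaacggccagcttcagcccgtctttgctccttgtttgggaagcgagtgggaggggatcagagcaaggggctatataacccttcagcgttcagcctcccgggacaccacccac
The *Acta1* window held a CArG box at base 178 of the 300, an MCAT core at base 205 and TATAAA at base 244, and the *Acta2* window held an MCAT core at base 105. *Acta2* is itself a well-known SRF target, and the lack of an exact CArG match in this window says nothing about SRF. Over all 32851 promoter windows in the table, a CArG box was found in 1.63%, an MCAT core in 14.7%, a MEF2 box in 3.19% and TATAAA in 13.6%. A match is a match of letters, not a measured binding site.

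*Ankrd1*, which binds titin in the I-band, also enters the nucleus and is induced by stretch, was higher in 5 of 6 TAC hearts than in any sham heart. Its level was 1409, 973 and 1310 CPM in WT sham, 688, 1430 and 900 CPM in F3-KO sham, 4621, 1303 and 3294 CPM in WT TAC and 2759, 5170 and 2302 CPM in F3-KO TAC hearts. WT TAC replicate 2 was the exception and lay within the sham range, as it did for *Xirp2* and *Rcan1*. For *Rcan1*, WT TAC replicate 1 (91.2 CPM) lay within the sham range too. The log2 fold change was 1.32 ± 0.44 in WT (adjusted p = 0.782, edgeR), 1.76 ± 0.45 in F3-KO (adjusted p = 0.175, edgeR) and 1.54 ± 0.31 over both (adjusted p = 0.088, edgeR; 8.02e-05, DESeq2). Without WT TAC replicate 2 or F3-KO TAC replicate 3, edgeR called *Ankrd1* over both genotypes (adjusted p = 0.0315 and 0.0214), and without the latter also within F3-KO (0.039). F3-KO and WT hearts differed by -0.29 ± 0.43 after sham and by 0.15 ± 0.43 after TAC on the log2 scale (adjusted p = 0.998 and 0.922, edgeR).

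*Xirp2*, which binds actin at the intercalated disc and is a known target of MEF2, had the clearest difference between the TAC groups. It stood at 520, 379 and 488 CPM in WT sham, 373, 486 and 301 CPM in F3-KO sham, 771, 423 and 904 CPM in WT TAC and 1357, 2505 and 1173 CPM in F3-KO TAC hearts. The sham groups overlapped, WT TAC reached above them in 2 of 3 hearts, and all F3-KO TAC hearts lay above every other heart. With TAC the log2 fold change was 2.12 ± 0.34, or 4.34-fold, in F3-KO hearts (adjusted p = 0.077, edgeR; 1.11e-07, DESeq2) and 0.60 ± 0.33 in WT hearts (adjusted p = 0.8, edgeR). Over both genotypes it was 1.36 ± 0.23 (adjusted p = 0.0614, edgeR; 2.16e-06, DESeq2).

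After TAC, F3-KO hearts exceeded WT hearts in *Xirp2* by 1.26 ± 0.33 on the log2 scale (unadjusted p = 0.00247, adjusted p = 0.365, edgeR; adjusted p = 0.0191, DESeq2), and the difference between the TAC effects was 1.52 ± 0.46 (unadjusted p = 0.00661, adjusted p = 0.954, edgeR). Neither passed the edgeR threshold over all genes. Near-threshold calls of *Xirp2* shifted with the hearts used: within F3-KO edgeR called it without F3-KO TAC replicate 1 (adjusted p = 0.0472) or replicate 3 (0.0101), and over both genotypes without WT TAC replicate 2 (0.0266), F3-KO TAC replicate 2 (0.0475) or F3-KO TAC replicate 3 (0.0114). Per 1000 CPM of cardiomyocyte markers, *Xirp2* stood at 5.33 to 16.2 CPM in WT TAC and 20.8 to 55.9 CPM in F3-KO TAC hearts, with the limit given for this scale with *Myh6*. Its counts were whole, within 0.005, in 8 of 12 hearts and within 0.03 of whole in the others, and none of its 50-base windows occurred in another gene.

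The promoters of *Ankrd1* and *Xirp2* follow, from the same table and with the same marks, since this pair had the highest rank correlation over the hearts among the 8 genes.
Ankrd1 promoter, chr19:36119795-36120094, minus strand: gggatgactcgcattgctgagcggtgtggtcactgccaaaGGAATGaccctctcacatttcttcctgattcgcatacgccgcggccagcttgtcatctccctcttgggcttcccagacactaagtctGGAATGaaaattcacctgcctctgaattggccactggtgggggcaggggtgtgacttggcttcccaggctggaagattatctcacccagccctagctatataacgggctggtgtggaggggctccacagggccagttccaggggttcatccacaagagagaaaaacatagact
Xirp2 promoter, chr2:67445752-67446051, plus strand: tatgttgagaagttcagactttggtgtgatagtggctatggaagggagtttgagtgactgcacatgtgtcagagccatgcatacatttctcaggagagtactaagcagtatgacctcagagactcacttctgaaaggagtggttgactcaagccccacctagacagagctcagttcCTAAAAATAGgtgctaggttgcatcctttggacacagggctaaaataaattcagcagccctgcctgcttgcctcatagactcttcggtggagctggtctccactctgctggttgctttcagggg
*Ankrd1* held MCAT cores at bases 41 and 128, both on the opposite strand, and *Xirp2* held a MEF2 box at base 177. Of the 8 genes, 5 had an MCAT core in a window (*Acta1*, *Acta2*, *Ankrd1*, *Myh6* and *Myh7*), among them *Acta1*, which rose over both genotypes, and *Acta2*, which had a value of 0.08. No letters of the 4 motifs were found in the windows of *Myh7b* and *Rcan1*.

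**Figure D3:**
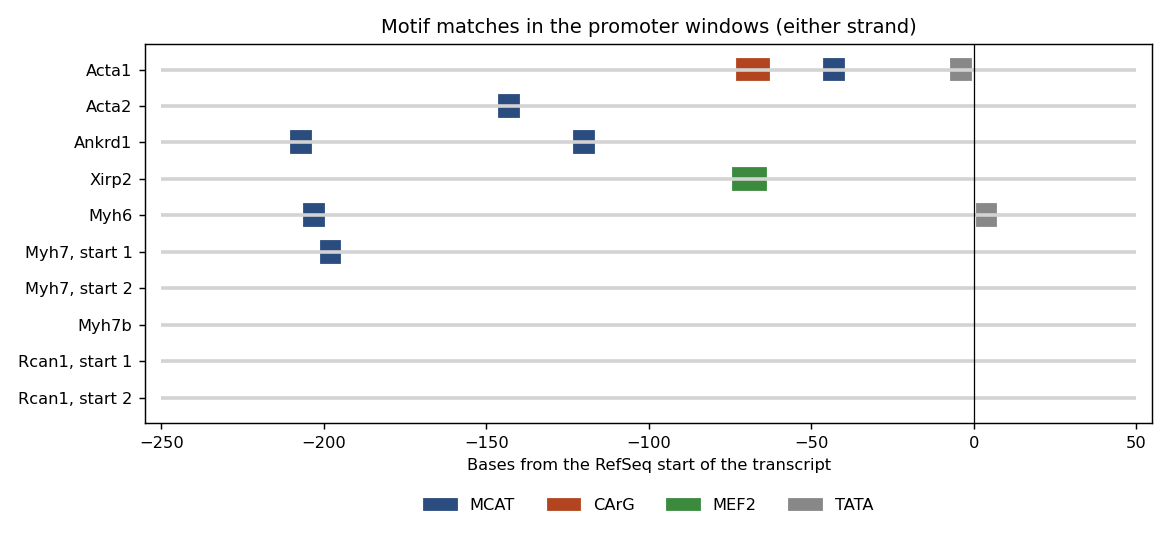
Position of the motif matches in the promoter windows of the 8 genes, in bases from the RefSeq transcript start; Myh7 and Rcan1 have a window for each of 2 annotated starts. Boxes mark exact matches to the consensus on either strand, coloured by motif; boxes that depart from the consensus are not drawn, and the 1 exact CArG match is in Acta1.

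*Rcan1* feeds back on calcineurin, the phosphatase that activates NFAT in hypertrophy. It was 73.3, 60.4 and 86.6 CPM in WT sham, 100, 85.8 and 83.4 CPM in F3-KO sham, 91.2, 82.3 and 105 CPM in WT TAC and 157, 249 and 110 CPM in F3-KO TAC hearts. The F3-KO TAC hearts were the 3 highest of the 12, replicate 3 only just, and the other groups lay within 60.4 to 105 CPM. The log2 fold change with TAC was 0.94 ± 0.25 in F3-KO hearts (adjusted p = 0.175, edgeR; 0.0226, DESeq2) and 0.34 ± 0.25 in WT hearts (adjusted p = 0.842, edgeR), and over both 0.64 ± 0.17 (adjusted p = 0.114, edgeR; 0.0195, DESeq2). After TAC, F3-KO hearts were higher than WT hearts by 0.89 ± 0.25 (unadjusted p = 0.00346, adjusted p = 0.374, edgeR). Without F3-KO TAC replicate 3, edgeR called *Rcan1* within F3-KO (adjusted p = 0.0212), over both genotypes (0.0205) and between the TAC groups (0.0406, with 0.718% of all genes called there).

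The second question was whether loss of *Fabp3* changed these genes. After sham, edgeR called 0 of the 8 genes between genotypes (0.106% of all genes tested), 2 had an unadjusted p under 0.05 (6.02%), DESeq2 called 0 (0.746%), limma-trend called 0 (0.177%), and 1 had groups that did not overlap (13.7%). These were *Acta1*, above, and *Myh7*, with a log2 fold change of -3.22 ± 1.44 (adjusted p = 0.821, edgeR), with WT sham replicate 1 inside the F3-KO range. Under limma-trend only *Acta1* had an unadjusted p under 0.05 after sham. After TAC, edgeR called 0 (0.078%), 3 had an unadjusted p under 0.05 (10%), DESeq2 called 1 (0.717%), limma-trend called 0 (0.0993%), and 2 did not overlap (11.4%). The 3 genes were *Xirp2* and *Rcan1*, higher in F3-KO hearts, and *Myh6*, lower with a log2 fold change of -0.65 ± 0.29 (adjusted p = 0.497, edgeR). Under limma-trend *Acta1*, higher in F3-KO hearts, took the place of *Myh6*. For the difference between the TAC effects of the 2 genotypes, edgeR called 0 (0.0%), 2 had an unadjusted p under 0.05 (4.48%), DESeq2 called 0 (0.0426%) and limma-trend called 0 (0.0071%). The median log2 fold change of the 8 genes was -0.08 after sham and 0.18 after TAC, beside 0.00 and 0.02 over all genes.

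**Figure D4:**
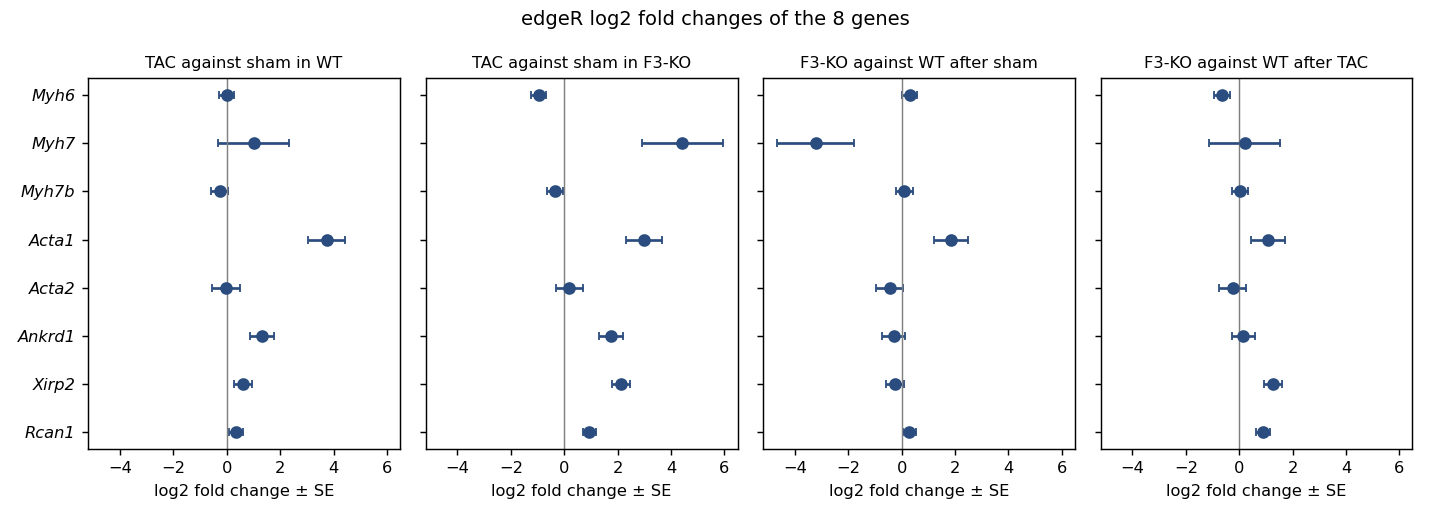
Fitted edgeR log2 fold changes of the 8 genes in 4 comparisons, each fitted on all 12 hearts; points are estimates and bars are standard errors. The bars of Myh7 are the widest in every panel. In the panel of TAC against sham in F3-KO, Myh7 (4.43), Acta1 (2.99), Xirp2 (2.12), Ankrd1 (1.76) and Rcan1 (0.94) lie right of zero. Myh6 (-0.96) and Myh7b (-0.35) lie left of it. None of these bars, each 1 standard error to a side, reaches zero, yet edgeR called 0 of the 8 genes there.

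Per length, that is CPM per kilobase of the longest annotated coding transcript, the order of the mean levels in WT sham hearts was *Myh6* (4443), *Myh7* (725), *Ankrd1* (609), *Acta1* (82.3), *Acta2* (52.9), *Xirp2* (38.6), *Rcan1* (31.6) and *Myh7b* (16.2). *Myh6* lay clear of the rest, at 2659 to 5575, and *Rcan1*, at 26 to 37.2, clear of *Myh7b*, at 10.1 to 20.3. *Myh7* (55.7 to 1473) and *Ankrd1* (482 to 698) overlapped, as did *Acta1* (31.1 to 108), *Acta2* (35.2 to 75.9) and *Xirp2* (31.7 to 43.4), and *Rcan1* overlapped these 3. The wide range of *Myh7* overlapped *Acta1* and *Acta2* as well. In F3-KO TAC hearts *Acta1* reached 2345 per kilobase, close to the 2811 of *Myh6*, whose hearts it overlapped, and below the 7988 of *Actc1*, and *Xirp2* reached 140.

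Pairwise, *Acta1*, *Ankrd1*, *Xirp2* and *Rcan1* had a Pearson r of 0.66 to 0.87 over the 12 hearts in log2 CPM. The values of *Ankrd1* and *Xirp2* had an r of 0.87 and a Spearman rho of 0.91, and r was 0.88 for the deviations from the 4 group means. For the other pairs of these 4 genes the r of the deviations ran from 0.23 (*Acta1* and *Rcan1*, whose r was 0.74) to 0.76 (*Xirp2* and *Rcan1*). For *Xirp2* and *Rcan1* r was 0.87 and rho 0.73, and for *Acta1* it was 0.79 with *Ankrd1* and 0.79 with *Xirp2*. *Myh7* had an r of 0.14 with *Acta1*, 0.43 with *Ankrd1* and -0.65 with *Myh6*, and *Acta2* had an r of -0.12 with *Acta1*. These are descriptions over 12 hearts that share the same 4 groups, and genes of a library also share its scaling.

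By the same measure, the genes most like *Xirp2* among the 13418 genes compared, those with a mean of at least 1 CPM, were *Enah* (r = 0.98, rho = 0.97), which encodes the actin regulator Mena, *Nlrc3* (0.94) and *Hif1a* (0.94). *Acta1* was most like *Naip2* (0.93), the natriuretic peptide gene *Nppb* (0.92) and *Dock1* (0.92). *Ankrd1* was nearest to *Tlr4*, *Ccdc68* and *Plp2* (all 0.93), and *Rcan1* to *Cilp* (0.95), *Mical2* (0.94) and *Dio2* (0.92), of which *Dio2*, an enzyme that makes active thyroid hormone, had an r of 0.58 without the 2 hearts farthest from the *Rcan1* median. *Myh6* was nearest to *Tufm* (0.93), *Ptges2* (0.93) and *Atad3a* (0.91), whereas *Sdf4* (0.91) and *Txnrd2* (0.91) were among the genes most like *Myh7*. *Myh7b* was most like *Csnk2a1* (0.90), *Sugp2* (0.90) and *Ppp1r14c* (0.89), and *Acta2* was most like *Lurap1l*, *Spata13* and *Ptpa* (all 0.92).

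The natriuretic peptide genes, the other classical markers of the fetal program, stood at 37.1 to 339 CPM (*Nppa*) and 95.0 to 311 CPM (*Nppb*) in sham hearts and at 143 to 3841 and 411 to 776 CPM in TAC hearts. *Nppb* rose with TAC over both genotypes (log2 fold change 1.86, adjusted p = 0.0105, edgeR), and *Nppa* had a value of 2.70 (adjusted p = 0.109, edgeR).

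Around the 8 genes, 6 lists of partners were read from the same fits. Over both genotypes edgeR called 0.078% of all genes tested, and 17.8% had an unadjusted p under 0.05, higher or lower. Of 14 partners of the stretch sensor, Z-disc and intercalated disc, 1 was called over both genotypes, *Ankrd23*, a titin-binding relative of *Ankrd1*, which rose (log2 fold change 1.32, adjusted p = 0.0105, edgeR). In that list 5 genes were higher and 1 lower at an unadjusted p under 0.05, and the abundant members *Des* and *Cryab* had values of 0.48 and -0.04. Of the 12 sarcomere partners tested, 0 were called over both genotypes, with 3 higher and 2 lower at an unadjusted p under 0.05, and the abundant *Tpm1* and *Myl2* had values of -0.13 and -0.12. The list's median log2 fold change with TAC was 0.24 in WT and -0.22 in F3-KO hearts, and its median for the difference between them was -0.58, beside 0.03 over all genes.

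In the actin family, *Acta1* was the 1 of 6 called over both genotypes. Of the 7 myosin heavy chain genes tested of 14, edgeR called 0, with *Myh7* and the non-muscle *Myh10* higher and *Myh6* lower at an unadjusted p under 0.05. *Myh15* and the embryonic and skeletal forms *Myh1*, *Myh2*, *Myh3*, *Myh4*, *Myh8* and *Myh13* were not among the genes tested. Of 14 other genes of the calcineurin and NFAT pathway, 0 were called and 0 had an unadjusted p under 0.05 in any of the 6 comparisons, with medians over the list of 0.00 in WT and 0.04 in F3-KO hearts; its most abundant members were *Myoz2* and *Rcan2*, with values of 0.21 and 0.06 over both genotypes. Of 20 transcriptional regulators tested of 22, edgeR called 0. The untested *Mrtfa* and *Mrtfb* were not found under these symbols, and older symbols were not searched. Over both genotypes 7 were lower and 0 higher at an unadjusted p under 0.05, beside 17.8% of all genes tested in either direction. Among the 7 were *Gata6*, *Myocd*, *Nkx2-5* and *Tbx5*. *Tead1* and *Mef2d*, the most abundant, had values of 0.16 and -0.22, and the list's median was -0.18 beside 0.00 over all genes.

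**Figure D5:**
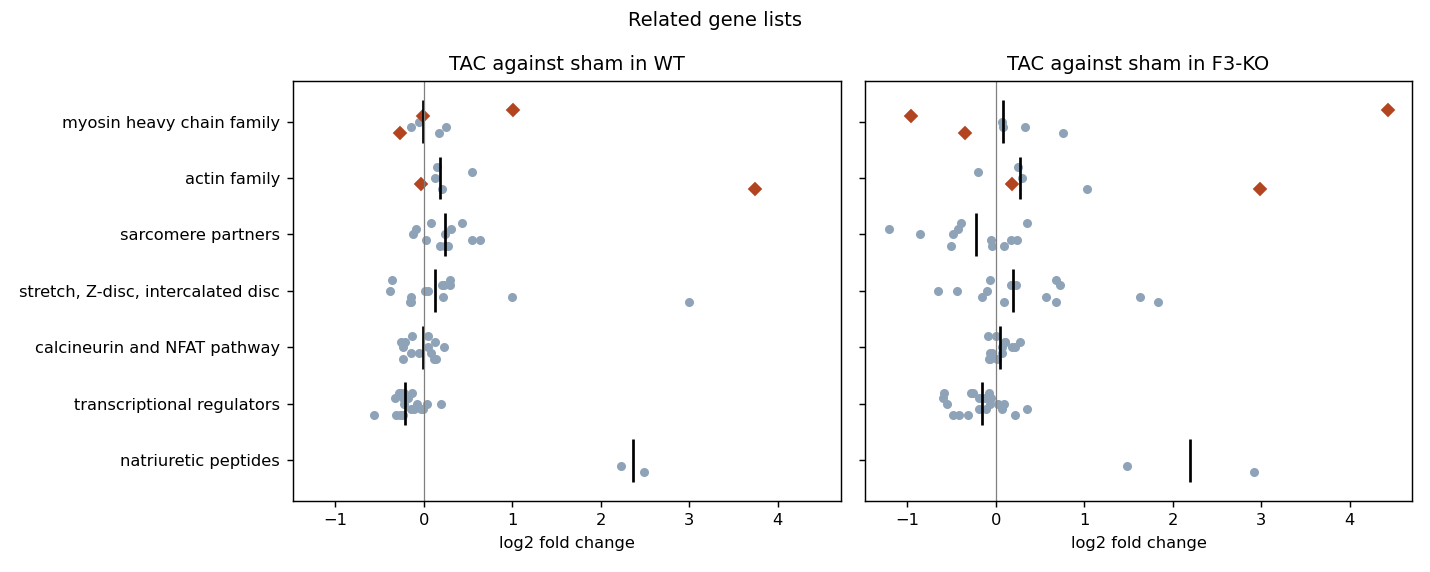
Fitted log2 fold changes with TAC in WT and in F3-KO hearts for the tested genes of 7 related lists; each dot is a gene, diamonds are members of the 8 genes described here, and black bars are list medians. Points are spread vertically within a list for legibility, and the calcineurin and NFAT genes cluster around zero in both panels.

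Markers of other cells differed between sham and TAC hearts as well. Beside the counts below, 17.8% of all genes tested had an unadjusted p under 0.05 over both genotypes and 17.1% within F3-KO hearts. Fibroblast markers summed to 762 to 1554 CPM in WT sham, 1091 to 1426 in F3-KO sham, 1471 to 3308 in WT TAC and 1596 to 7157 in F3-KO TAC hearts, with 6 of 8 higher over both genotypes at an unadjusted p under 0.05 and 0 called. Macrophage markers summed to 300.0 to 610 CPM in WT sham, 435 to 497 in F3-KO sham, 553 to 830 in WT TAC and 668 to 937 in F3-KO TAC hearts, with 7 of 8 higher in the same way and 0 called. In each TAC group the lowest fibroblast sum was that of replicate 3 (1471 and 1596 CPM), of which *Dcn* gave 1079 and 1025 CPM. In these hearts *Col1a1* (75.2 and 103 CPM), *Col3a1* (64.3 and 151) and *Postn* (24.4 and 40.7) lay within or below the range of all sham hearts. So did the other fibroblast markers, apart from *Pdgfra* in F3-KO TAC replicate 3 (65.0 CPM). F3-KO TAC replicate 2, the heart with the most fibroblast marker RNA, also had the highest *Ankrd1*, *Xirp2* and *Rcan1*. Erythroid markers summed to 1068 to 4718 CPM in F3-KO sham and 380 to 902 CPM in F3-KO TAC hearts, with 5 of 5 lower at an unadjusted p under 0.05 and 0 called. Endothelial markers (781 to 1342 CPM over all hearts), pericyte markers (874 to 1230 CPM) and atrial markers (48.0 to 124 CPM) had 0 genes called in any comparison. Of the 4 pericyte markers, 2 (*Abcc9* and *Kcnj8*) were lower with TAC in F3-KO hearts and over both genotypes at an unadjusted p under 0.05, and 0 of 6 endothelial markers had such a p in any comparison.

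Most of the atrial sum was *Kcnj3* (29.3 to 120 CPM), which was lower at an unadjusted p under 0.05 in 5 of the 6 comparisons. The other atrial markers stood apart in replicate 2 of both F3-KO groups: *Myl4* was 14.2 CPM in F3-KO sham replicate 2 and 13.8 CPM in F3-KO TAC replicate 2, beside 1.01 to 5.30 CPM in the other hearts, and *Myl7* was 8.13 and 8.55 CPM beside 0 to 2.57 CPM. *Sln* was 1.64 and 2.3 CPM in the same hearts and at most 0.247 CPM elsewhere. F3-KO TAC replicate 2 was also the heart with the highest *Nppa* (3841 CPM), and F3-KO sham replicate 2 the sham heart with the highest *Acta1* (753 CPM). Without both hearts, a choice made after the values were seen, edgeR called *Acta1* over both genotypes (log2 fold change 3.68, adjusted p = 0.0489) and 0 of the 8 genes in the other comparisons, and the *Acta1* difference between genotypes after sham was 1.14. On the same hearts the log2 fold change with TAC in F3-KO was 1.89 for *Xirp2*, 1.66 for *Ankrd1* and 0.53 for *Rcan1*, and after TAC the genotypes differed by 0.85, -0.29 and 0.52 in these genes. Beyond that, the part of the markers of other cells in the results on the 8 genes was not tested.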

How the data were processed

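The authors deposited estimated counts per gene, not normalized, for 12 hearts; 40.6% of the values lay over 0.005 from a whole number, so every value was rounded before use. Per the study's methods and the submitters' processing notes, reads were cleaned with SOAPnuke and mapped with HISAT2 2.0.4 and STAR 2.3.0; the notes name mm8 and mm9, and the counting tool and annotation are not given in the sources used here. The test planned for whole counts was kept after rounding. Single-heart tables matched the joint table in 11 hearts, and 1 breaks off. Samples were grouped by their labels, and 0 columns were left unmapped.

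Counts were fitted with edgeR 4.0.16 (R 4.3.3): filterByExpr at a minimum of 10, TMM, the quasi-likelihood test on 4 group means over all 12 hearts, and Benjamini-Hochberg adjustment over 14094 genes, called under 0.05. DESeq2 1.42.0 and limma 3.58.1 (limma-trend) served as alternatives. The script was tested on simulated data. Likeness used log2 CPM with a prior count of 2. Ratios were compared with exact permutation tests. The members and lists were chosen with earlier results of these data known. Named genes were the 8 members, *Fabp3*, *Nppa*, *Nppb*, the 3 genes most like each member and, per list, called genes or the 2 most abundant; others were named after their values were seen, and 1 item is not reported here. Replicate numbers were not used to pair the hearts in the main test. Correlations of the deviations of same-numbered hearts ran from -0.14 to 0.36, the highest for replicate 3 of the TAC groups. Whether same-numbered hearts shared a batch is not given by the labels. Replicates differed beyond counting noise (chi-square per degree of freedom 9.8 to 79.0).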

Additional observations from a re-analysis of the deposited data

How the results depend on the processing

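Each alternative changed 1 choice. Of 136 recomputed counts of members called, 110 stayed the same. At an unadjusted p under 0.05 in edgeR the counts were 2 (WT), 6 (F3-KO) and 6 (both genotypes) for TAC against sham, 2 and 3 for F3-KO against WT after sham and after TAC, and 2 for the interaction. Under limma-trend these counts were 2, 4, 4, 1, 3 and 1 in the same order, with *Myh6* and *Myh7* in none of them. DESeq2 called 1, 5 and 4 for TAC against sham in WT, in F3-KO and over both, and 1 between genotypes after TAC. With no filter on low counts the counts were 1 in F3-KO and 2 over both, and with at least 10 counts in every library 2 over both. Leaving out each heart in turn gave 0 to 4 in F3-KO, 0 to 4 over both and 0 to 1 between genotypes after TAC, where edgeR called up to 5.43%, 5.92% and 0.718% of all genes. Without replicate 3 of both TAC groups, a choice made after seeing the data, 4 were called in F3-KO and 4 over both, beside 6.81% and 8.92% of all genes. Without replicate 2 of both F3-KO groups, also chosen after seeing the data, *Ankrd1* was -0.29 between genotypes after TAC and every count of members called was unchanged.

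Of 1046 recomputed log2 fold changes, 962 kept direction and call, 47 changed sign, 32 gained and 5 lost a call. All sign changes were of values that edgeR had not called. Leaving out each heart, the TAC effect in WT ran from -0.28 to 0.18 (*Myh6*), -0.67 to 2.06 (*Myh7*), -0.53 to 0.02 (*Myh7b*) and -0.68 to 0.33 (*Acta2*), that of *Acta2* from -0.43 to 0.56 in F3-KO and -0.25 to 0.27 over both, and the genotype difference of *Myh7b* after sham from -0.14 to 0.3. After TAC the genotype difference ran from -1.14 to 1.88 (*Myh7*), -0.27 to 0.28 (*Myh7b*), -0.86 to 0.41 (*Acta2*) and -0.29 to 0.57 (*Ankrd1*), and the interaction from -0.37 to 0.18 (*Myh7b*), -1.09 to 0.28 (*Acta1*) and -0.4 to 0.86 (*Acta2*). Without replicate 3 of both TAC groups, *Myh6*, *Myh7* and *Acta2* had TAC effects of 0.16, -0.67 and 0.23 in WT and *Myh7b* an interaction of 0.07, which was 0.06 on library totals without TMM. *Myh6* with *Myh7* counts added gave 0.18 in WT. Under limma-trend *Myh6* was 0.03 in WT, *Acta2* -0.04 over both and *Myh7* -0.63 between genotypes after TAC. The log2 *Myh7* to *Myh6* ratio ran from -0.46 to 2.38 for TAC in WT, 2.3 to 6.03 in F3-KO, 1.66 to 3.54 over both, -4.23 to -1.39 between genotypes after sham, -1.47 to 2.26 after TAC and 1.24 to 4.97 for the interaction when a heart was left out. The causes of these shifts were not tested.

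With the replicate number as a replicate block, 0 members were called over both genotypes (*Acta1* 3.26 on the log2 scale, adjusted p = 0.0519, edgeR), and no other count of members called changed. *Myh6* was 0.02 for TAC in WT and *Myh7* -0.3 between genotypes after TAC. Paired exact permutation p-values of the *Myh7* to *Myh6* ratio were 0.25 to 1.0, with the same differences: 1.06 in WT, 3.77 in F3-KO, 2.41 over both, -2.71 after sham, 0.00 after TAC and 2.71 for the interaction.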
